A study of Glycine max with 4 samples.

Results

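The genes described are the 3 soybean stem growth habit genes Dt1 (Glyma.19G194300), the duplicate of Dt1 called the TFL1 copy here (Glyma.03G194700) and Dt2 (Glyma.18G273600), chosen by identifier and not by any measured value. All 3 were among the 56044 genes counted. RNA was sequenced from 5 cm shoot tips, immature trifoliate leaves included, of soybean (Glycine max) plants of cultivar Thorne grown for 1 month in a greenhouse. The tagged plants (tagged 1 and tagged 2, both transgenic, n = 2) carried the mmPing20F insertion at chromosome 8 position 2785626, an activation tag built from the rice transposable element mPing to raise the expression of genes beside it. The untagged plants (n = 2) lacked that insertion. Untagged 1 was transgenic and carried the construct that expresses the transposase, and untagged 2 was an untransformed Thorne plant. The labels do not state what drives the tag or the transposase, nor how the tagged plants are related by descent. Both carried the insertion at the same position, so they stand for 1 insertion and not 2. Each library came from a labelled plant of its own.

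Whether a soybean stem keeps growing at its tip or ends in a flower is a classic trait of the crop. Dt1 is a homologue of TERMINAL FLOWER 1 of Arabidopsis, a small protein of the phosphatidylethanolamine-binding family that opposes its relative FLOWERING LOCUS T and keeps the shoot apical meristem vegetative. An active Dt1 gives an indeterminate stem, and its loss gives a determinate one. Dt2 is a MADS-domain transcription factor of the APETALA1 and FRUITFULL group that is known to repress Dt1 in the stem tip, which gives a semi-determinate stem.

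The files pair no identifier with a name, and the names used here came with the identifiers. A RefSeq table of another soybean assembly (Glycine_max_v4.0, 59048 genes) holds 0 identifiers of this form. It lists protein-coding genes DT1 on chromosome 19, TFL1A on chromosome 3 and DT2 on chromosome 18, the chromosomes that the digits of the 3 identifiers give. That table also lists Dt1 among the synonyms of TFL1A, so the chromosome and not the name separates the duplicates. Their genomic spans in that table, introns included, were 1306 bases for DT1, 1695 bases for TFL1A and 8425 bases for DT2. Transcript lengths were not at hand, so counts of different genes are not compared as levels.

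The libraries held 49210060 and 27900266 counts for the tagged plants, 30958755 for untagged 1 and 34186179 for untagged 2. The library of the untransformed plant stood apart. With edgeR's quasi-likelihood test of the 3 transgenic plants against it, 20065 of 40884 genes (49.1%) passed an adjusted p of 0.05. The comparisons between groups, and the summaries over all libraries, are therefore given with and without it. Markers of meristem, leaf, flower, nodule and seed could not be matched to identifiers, so the tissue label was not checked against them.

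The 3 genes were read at low depth in every plant, and Dt2 alone had enough counts to pass the filter for testing. Normalized counts below are raw counts divided by 1 size factor per library, as the authors deposited them. The mean of Dt2 over the 4 libraries, 43.4 ± 17.3 normalized counts (SD, n = 4), exceeded that of 29.7% of the genes with at least 1 count. The mean of Dt1, 5.18 ± 3.43, exceeded that of 13.8% of them, and the mean of the TFL1 copy, 0.596 ± 1.19, that of 3.90%. Without the untransformed plant these shares were 28.3% for Dt2, 15.1% for Dt1 and 4.36% for the TFL1 copy. These are ranks of read counts, not of levels per length. In bulk tissue, fewer cells of a type and less RNA per cell cannot be told apart.

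**Figure D1:**
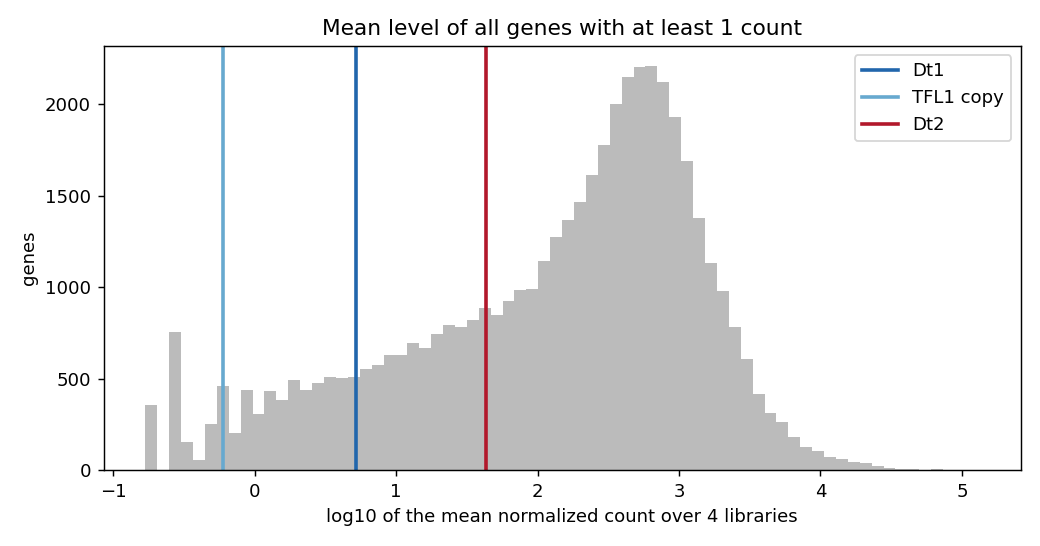
Number of genes (vertical axis) by the log10 of their mean normalized count over the 4 libraries (horizontal axis), for genes with at least 1 count. The lines mark the TFL1 copy, Dt1 and Dt2, with means of 0.596, 5.18 and 43.4 normalized counts, all to the left of the main peak.

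Dt1, the repressor of terminal flowering, was detected in all 4 plants, always by single-digit read counts. It had 7 reads in tagged 1 and 8 in tagged 2, 5 in untagged 1 and 1 in the untransformed plant. Scaled for depth, these were 4.72 and 9.54 normalized counts in the tagged plants, 5.31 in untagged 1 and 1.17 in the untransformed plant. Tagged 2 was highest and the untransformed plant lowest, and untagged 1 lay between the tagged plants, so the tagged and untagged groups overlapped. The exact Poisson 95% intervals, which cover counting error only, ran from 1.90 to 9.73 in tagged 1, from 4.12 to 18.8 in tagged 2, from 1.72 to 12.4 in untagged 1 and from 0.0297 to 6.54 in the untransformed plant. All of these intervals overlapped. Of the 6 ratios between pairs of libraries, 1 had a 95% counting interval that left out 1: the untransformed plant was at 0.123 of the level of tagged 2 (0.00277 to 0.918). That ratio sets the lowest plant against the highest, 1 read against 8. Its interval is unadjusted for the number of pairs. Plants adjacent in level were not separated.

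The TFL1 copy was at the limit of detection. It had 2 reads in tagged 2, which is 2.38 normalized counts, and 0 reads in tagged 1, untagged 1 and the untransformed plant. A count of 0 allows up to 3 reads as a one-sided limit, which is 2.02 normalized counts in tagged 1, 3.18 in untagged 1 and 3.52 in the untransformed plant. The two-sided Poisson intervals drawn in the plot of levels reach 2.49, 3.91 and 4.33. The Poisson interval of tagged 2, 0.289 to 8.61, covered all of these limits, so a difference between plants was not detectable at this depth. Another 60 genes had exactly these 4 raw counts, and 747 genes had 2 reads in total.

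The reads of the duplicate pair came mostly from Dt1. Over the 4 libraries, 21 of the 23 reads of the pair were counted to Dt1, a share of 91.3% (exact Clopper-Pearson 95% interval 72.0 to 98.9), and without the untransformed plant it was 90.9% (70.8 to 98.9). The share was 7 of 7 reads in tagged 1, 8 of 10 in tagged 2, 5 of 5 in untagged 1 and 1 of 1 in the untransformed plant. Within tagged 2, where alone both copies were seen, the share was 80.0% (44.4 to 97.5). The shares are of reads, not divided by transcript length. How the authors' counting treated reads that align equally well to both copies is not given in the sources used here, so the division between the copies is uncertain.

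Dt2, the MADS gene, differed more between the untagged plants than between the tagged plants. It had 53 reads in tagged 1 and 44 in tagged 2, 22 in untagged 1 and 53 in the untransformed plant. The normalized counts were 35.7 and 52.5 in the tagged plants, 23.3 in untagged 1 and 62.2 in the untransformed plant. The untagged plants were thus the lowest and the highest of the 4, with both tagged plants between them. How many of all genes show this order was not counted. The untransformed library alone was the highest at 43.8% of genes averaging 20 or more normalized counts, so its place is not particular to Dt2.

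Counting error alone separated some of these plants and not others. The Poisson intervals of Dt2 were 26.8 to 46.8 normalized counts in tagged 1, 38.1 to 70.4 in tagged 2, 14.6 to 35.3 in untagged 1 and 46.6 to 81.4 in the untransformed plant. Of the 6 pairs of libraries, 3 had a ratio whose 95% counting interval left out 1, unadjusted for the number of pairs. The untransformed plant was 2.67-fold above untagged 1 (1.59 to 4.60) and 1.74-fold above tagged 1 (1.17 to 2.60). Tagged 2 was 2.25-fold above untagged 1 (1.32 to 3.94). In the order of the levels, neighbouring plants were not separated: tagged 1 was 1.53-fold above untagged 1 (0.915 to 2.64), tagged 2 was 1.47-fold above tagged 1 (0.961 to 2.23), and the untransformed plant was 1.19-fold above tagged 2 (0.780 to 1.81). These ratios compare single libraries, not conditions. A ratio of over 2-fold between the same untagged plants, with the untransformed one higher, was found at 19.8% of the 36833 genes averaging 20 or more normalized counts.

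**Figure D2:**
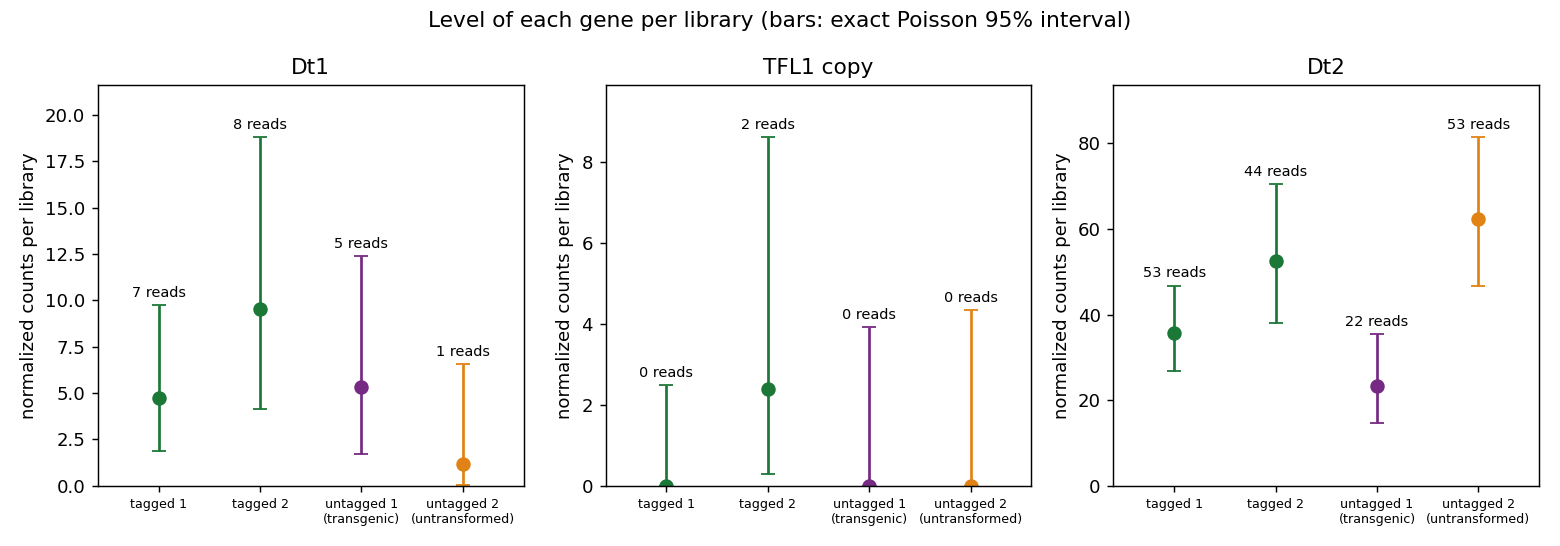
Normalized counts (vertical axes, each panel with its own scale from 0) of Dt1, the TFL1 copy and Dt2 in each library, with exact Poisson 95% intervals and the raw read count above each bar. Dt1 and the TFL1 copy rest on 0 to 8 reads per library, and for Dt2 the untagged plants are the lowest (23.3) and the highest (62.2).

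The study set tagged against untagged plants to find genes that respond to the activation tag, and none of the 3 genes passed that test. Dt2 averaged 44.1 ± 11.8 normalized counts in tagged plants and 42.8 ± 27.5 in untagged plants (SD, n = 2 each), and the groups overlapped. With edgeR's quasi-likelihood test its log2 fold change was 0.04 ± 0.66 (SE), tagged over untagged, with an adjusted p of 0.993 over 38824 genes. The 95% interval ran from -1.75 to 1.82, so a change of 2-fold in either direction lay within it. Dt1 averaged 7.13 ± 3.41 in tagged and 3.24 ± 2.92 in untagged plants. It failed the filter on low counts, and without that filter its log2 fold change was 1.08 ± 1.17, with an interval from -1.95 to 4.11 and an edgeR adjusted p of 0.943. The TFL1 copy is described by its counts alone.

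Over all genes, this comparison gave no calls in edgeR and limma-voom and few in DESeq2. edgeR called 0 of 38824 genes (0%), with 444 genes at an unadjusted p under 0.05, and limma-voom called 0 with 398 such genes. DESeq2 called 0.067% of the 47796 genes with any count. It gave Dt1 and the TFL1 copy no adjusted p here, so neither could be called by it. A count of 0 called among the 3 genes is therefore not particular to them. Without untagged 1, with only the untransformed plant for comparison, edgeR called 49.4% of genes, and Dt2, which alone of the 3 was tested there, was not among them. The estimate for Dt2 turned with the library left out. It was -0.49 without untagged 1, 0.90 without the untransformed plant and -0.23 without tagged 2, and none of these passed the test in edgeR.

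Among the 3 transgenic plants, Dt2 was higher in both tagged plants than in the untagged one, by an amount that did not pass the test. How many of all genes share that order was not counted, so it is not read as particular to Dt2. Its log2 fold change, tagged 1 and 2 over untagged 1, was 0.90 ± 0.52 (SE) with an edgeR adjusted p of 0.656 over 39528 genes and a 95% interval from -0.35 to 2.16. A change at least this large, in either direction, was estimated at 6.91% of the genes tested, and at 16.2% in the fit without the low-count filter. With 1 tagged plant at a time the estimate was 1.16 without tagged 1, a size reached by 5.00% of genes, and 0.63 without tagged 2, a size reached by 13.8%. On pooled reads the tagged plants were 1.79-fold above untagged 1, with a counting interval of 1.12 to 2.99, which leaves out the spread between plants. edgeR called 0.0101% of genes in this comparison, DESeq2 0.499% and limma-voom 0%. The fit takes the spread of the lone untagged library to equal that of the tagged pair.

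For Dt1 the same 3 plants gave a small estimate with a wide interval. Its log2 fold change was 0.36 ± 1.16 in the fit without the low-count filter, with an edgeR adjusted p of 0.953 and an interval from -2.12 to 2.84. That fit called 0.77% of genes. On pooled reads, 15 in the tagged plants and 5 in untagged 1, the ratio was 1.22 with a counting interval of 0.421 to 4.28. At these counts a 4-fold rise lay within the counting interval and a 4-fold fall lay outside it but within the interval of the edgeR fit.

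After scaling for depth, the untransformed plant held the highest value of Dt2 and the lowest of Dt1. Dt2 averaged 37.2 ± 14.6 normalized counts in the transgenic plants (SD, n = 3) against 62.2, and Dt1 averaged 6.52 ± 2.63 against 1.17. On pooled reads the untransformed plant was 1.71-fold above the transgenic plants for Dt2, with a counting interval of 1.21 to 2.38. For Dt1 it was at 0.192 of their level (0.00462 to 1.20). These counting intervals leave out the spread between plants. The log2 fold change, transgenic over untransformed, was -0.73 ± 0.50 (SE) for Dt2, with an edgeR adjusted p of 0.264 and a 95% interval from -1.92 to 0.47. For Dt1, in the fit without the low-count filter, it was 2.35 ± 1.34 with an edgeR adjusted p of 0.199 and an interval from -0.75 to 5.45. Neither passed. In the filtered fit that tested Dt2, 23.3% of genes were called higher and 25.8% lower in the transgenic plants, and in the unfiltered fit that tested Dt1, 42.1% were called in either direction. With upper-quartile scaling the filtered calls split into 11739 higher and 8675 lower genes, against 9510 and 10555. In either direction DESeq2 called 38.3% of genes, Dt1 and Dt2 not among them, and limma-voom called 46.9% with the filter, Dt2 not among them, and 41.3% without it, Dt1 not among them.

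Positions outside the range of the transgenic plants were common among all genes. The untransformed library lay above all 3 transgenic libraries at 43.8% of genes averaging 20 or more normalized counts, as it did for Dt2. It lay below all 3 at 41.6% of genes averaging 2 or more, as it did for Dt1. A change of at least the size of that of Dt2 was estimated at 52.0% of the genes tested. For Dt1, in the fit without the low-count filter, the share was 16.1%. Each fit takes the spread of the lone untransformed library to equal that of the others. The line, growth and preparation of that library cannot be told apart from its lack of a transgene.

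**Figure D3:**
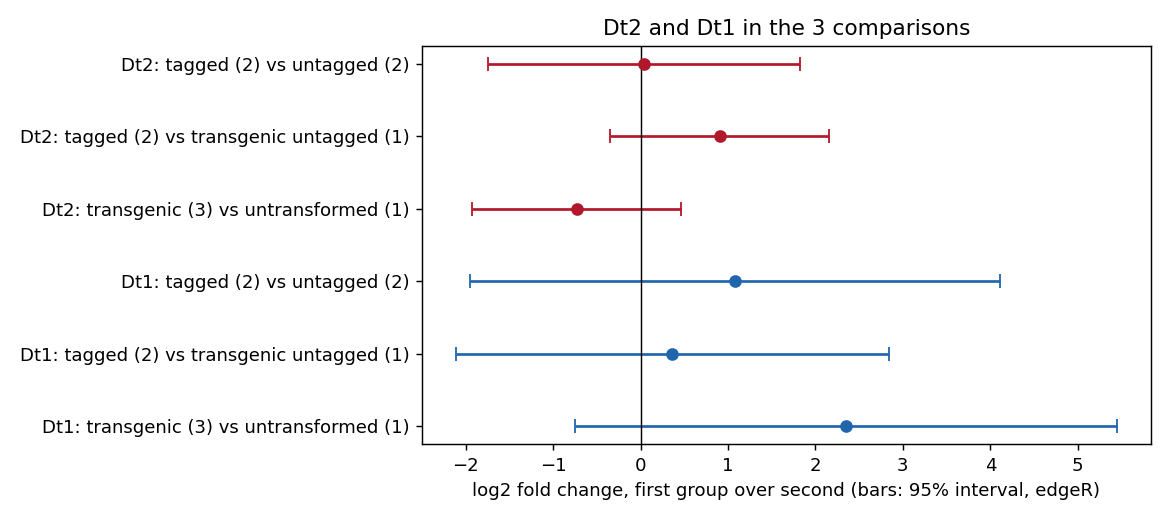
Log2 fold change (horizontal axis, first group over second, with 95% intervals from edgeR's quasi-likelihood test) of Dt2, from the filtered fit, and of Dt1, from the fit without the low-count filter, in the 3 comparisons. All 6 intervals cross 0, and those of Dt1, from -1.95 to 4.11 in the first comparison, are wider than those of Dt2, from -1.75 to 1.82.

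The balance of Dt1 and Dt2 reads within a plant needs no scaling between libraries. The percentages are of reads, not divided by transcript length. Dt1 made up 11.7% of the reads of the pair in tagged 1 (7 of 60, exact Clopper-Pearson 95% interval 4.82 to 22.6), 15.4% in tagged 2 (8 of 52, 6.88 to 28.1) and 18.5% in untagged 1 (5 of 27, 6.30 to 38.1). In the untransformed plant it made up 1.85% (1 of 54, 0.0469 to 9.89). The intervals of the transgenic plants overlapped, and pooled they gave 14.4% (20 of 139, 9.02 to 21.3). The untransformed plant was lower than all 3, and its share rests on 1 read of Dt1. Its interval overlapped that of each of them and of their pool, which does not decide whether the shares differ. This share was chosen after the counts were seen and was not tested between groups.

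**Figure D4:**
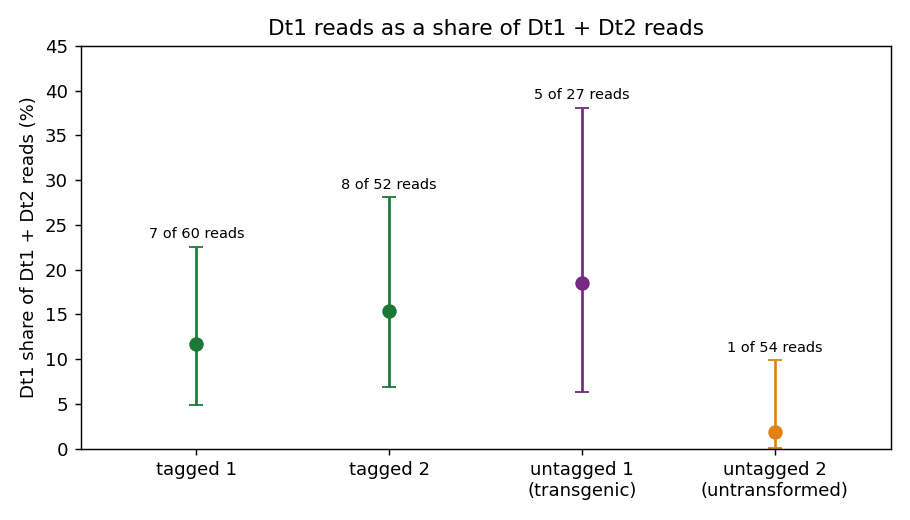
Reads of Dt1 as a percentage of the reads of Dt1 and Dt2 together (vertical axis) in each library, with exact Clopper-Pearson 95% intervals and the read counts above. The 3 transgenic plants lie between 11.7% and 18.5% and the untransformed plant at 1.85%, with overlapping intervals.

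The estimated spread of Dt2 between plants depended on the libraries in the fit. Its biological coefficient of variation, edgeR's estimate of the relative spread beyond counting error, was 0.509 over tagged and untagged plants. That estimate is drawn towards the values of all genes, so it is not the spread of 1 gene alone. It was 0.261 among the 3 transgenic plants, and 0.299 when transgenic plants were set against the untransformed one. The larger value belongs to the fit that holds the lowest and the highest plant of Dt2 in 1 group, but it was not particular to Dt2. For Dt1, without the low-count filter, the value was also largest in that comparison, at 0.628. It was 0.372 among the transgenic plants and 0.335 against the untransformed one. The TFL1 copy, with 2 reads in total, was given 0.747, 0.409 and 0.430 in the same fits, in that order. The cause was not tested.

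The genes with a profile most like each member over the 4 libraries were found by the distance between mean-centred log2(normalized count + 1) values. For Dt2 the nearest was Glyma.06G124300, at a distance of 0.0687, with 32.4 and 45.3 normalized counts in the tagged plants, 20.2 in untagged 1 and 52.8 in the untransformed plant. The second was Glyma.03G036500, at a distance of 0.0724. Neither carries a name in the sources used here. Within a distance of 0.5 of Dt2 lay 469 of 36507 genes (1.28%), so the profile is shared by many genes. Over the 3 transgenic libraries alone, 9.45% of the genes lay within that distance, and 26 and 31 genes were closer to Dt2 than these.

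For Dt1 the nearest profiles were those of Glyma.10G166100 (distance 0.0860) and Glyma.17G240300 (distance 0.0896). Glyma.10G166100 was far more deeply read, with 699 and 1253 normalized counts in the tagged plants, 721 in untagged 1 and 268 in the untransformed plant. The 1 added before taking logs shrinks the differences of Dt1 far more than those of a deeply read gene. A small distance here therefore does not mean equal fold differences. For Dt1 the untransformed plant was at 0.123 of the level of tagged 2, a wider gap than that of Glyma.10G166100. The profile of Dt1 also rests on only 21 reads, so the likeness describes these transformed counts and no more. Over the 3 transgenic libraries alone, 44 and 71 genes were closer to Dt1 than these. For the TFL1 copy, the 60 genes with identical counts were all at a distance of 0.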

How the data were processed

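The members and lists were chosen with earlier results of these data known. The submitters' processing notes name CASAVA (version 1.8), HISAT2 (version 2.1.0), HTSeq (version 0.6.1) and DESeq2; the sources used here give no genome build, annotation or strand setting. The authors deposited raw read counts per gene (whole numbers) and a scaled signal, each count divided by a size factor per library; multiplied back, 100% of the deposited values were whole within 0.01.

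Raw counts of all genes were fitted in R 4.3.3 with edgeR 4.0.16 (quasi-likelihood test, TMM scaling, filterByExpr with a minimum count of 10, Benjamini-Hochberg adjustment over all genes at 0.05). Standard errors are the absolute log2 fold change divided by the square root of F. Dt1 and the TFL1 copy failed the filter, so Dt1 was fitted without it. Other settings tried were limma-voom (limma 3.58.1), DESeq2 1.42.0, RLE and upper-quartile scaling, no filter, a replicate block and leaving out each library. Intervals (95%) of counts and shares cover counting error only. The p-values rest on the spread between plants within groups, which edgeR moderates over all genes. Where a group holds 1 library, that spread comes from the other group. The fits were also run on simulated data in which only genes read more deeply than the members were changed. That run therefore does not bear on the fits of the members. Named genes were the members and, for each, the 2 genes with the nearest profile among genes whose mean was at least 0.5 of the member's own. The planned lists of related flowering genes and tissue markers were not used, since no identifier could be matched to a name. No protein or promoter sequences were used here. The design text and the labels spell the name of untagged 1 differently, by 1 digit, and were taken to mean the same plant.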

Additional observations from a re-analysis of the deposited data

How the results depend on the processing

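No test run called any of the 3 genes. With the low-count filter these tests covered Dt2 alone, and the TFL1 copy had no value where tagged 2 was left out. DESeq2 gave the TFL1 copy no adjusted p in any comparison, and gave Dt1 an adjusted p only against the untransformed plant. Leaving out 1 library at a time, the log2 fold change of Dt2 ran from -0.49 (without untagged 1) to 0.90 (without untagged 2) in the tagged against untagged comparison, negative also without tagged 2 (-0.23). It ran from 0.63 to 1.16 among the transgenic plants and from -1.03 to -0.49 against the untransformed plant. The values of Dt1, without the low-count filter, ran from 0.36 to 2.46, from -0.15 (without tagged 2) to 0.83, and from 2.02 to 2.53. The values with 1 library on each side have no test. With 1 other setting changed at a time, Dt2 lay between 0.03 and 0.18, 0.82 and 0.92, and -0.80 and -0.55 in the 3 comparisons. Upper-quartile scaling moved the median of all genes in the last comparison from 0.03 to 0.21.

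The counts over all genes moved more. For tagged against untagged plants, DESeq2 called 6 genes higher and 26 lower, and leaving out 1 library gave 0 to 9669 higher and 0 to 10419 lower, the upper ends without untagged 1; without untagged 2 it was 2 and 2. Among the transgenic plants, edgeR called 2 higher and 2 lower, against 5 lower with RLE scaling, 35 and 7 with upper-quartile scaling, 0 and 0 with limma-voom (3336 at an unadjusted p under 0.05), 318 and 43 without the filter and 211 and 23 with DESeq2. The cause was not tested. The replicate block gave a log2 fold change of 0.18 for Dt2 and 1.14 for Dt1, with 0 genes called in either direction; same-numbered libraries deviated with a correlation of -0.052 across genes, and no label pairs them. Levels of Dt1 and Dt2 relative to the 4-library mean hardly changed between TMM and size-factor scaling (for Dt1 in tagged 1, 0.918 and 0.910). The counting intervals are far wider than such changes, so lying within them shows little. The TFL1 copy and upper-quartile scaling were not part of that comparison. The share of pair reads per coding length was not run, since no coding lengths were used.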
